A study of Rattus norvegicus with 24 samples.

Results

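The ventral striatum was examined 40 min after a single intraperitoneal injection of MK-801 at 0.16 mg/kg (high dose) or 0.08 mg/kg (low dose), each dose against saline, in male Wistar rats of 10 weeks. The 4 ventral striatum arrays, out of 24 arrays in the series, were taken by the tissue and dose named in their sample labels. The study used 9 rats, of which 3 received saline and 6 received MK-801, and 6 brain regions were dissected from them by the method of Glowinski and Iversen. The labels do not say how many rats entered each dose group, which rat or pool gave the RNA of an array, or whether RNA was pooled. Each dose was measured as 1 dye swap on two-colour Agilent rat arrays. On the first array of a swap MK-801 RNA was labelled with Cy5 and saline RNA with Cy3, and on the second the dyes were exchanged. Every value below is the log2 ratio of MK-801 over saline, turned to that direction on each array, and a swap counts as 1 value, so that no test of MK-801 against saline within the region was possible. The study had a single saline group for both doses, and whether the swaps of the 2 doses carried RNA of the same saline rats is not stated in the labels, so the doses may share their controls. The labels name no other agent and no altered gene.

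MK-801 (dizocilpine) is a non-competitive antagonist that enters and plugs the channel pore of the NMDA receptor, a glutamate receptor assembled from GluN1 and GluN2 or GluN3 subunits. The ventral striatum includes the nucleus accumbens and olfactory tubercle, whose principal cells are GABAergic projection neurons that receive glutamatergic input from cortex, hippocampus and amygdala and dopaminergic input from the midbrain. Immediate early genes are transcribed within minutes of stimulation without new protein synthesis, in neurons after synaptic activity and in endothelial and glial cells after growth factors, stress hormones or shear.

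The dissection matched its label. All 28 measured striatal projection neuron genes, of 34 listed, had their highest saline level in the ventral striatum among the 6 regions, with a median lead of 1.69 on the log2 scale over the next region. Rgs9, a striatal regulator of G protein signalling, led by 5.09, the adenosine receptor gene Adora2a by 4.65 and the D1 dopamine receptor gene Drd1 by 3.40. None of the 10 measured markers of cortical and hippocampal projection neurons and none of the 6 measured choroid plexus markers had its highest saline level there. On the ventral striatum arrays 63.7% to 72.3% of probes cleared the scanner's background test in both colours. On 1 of them, the high dose array with MK-801 in Cy3, 46 spots had a raised local background of up to 6.12 times the array median. Of these, 35 lay close together in a patch. Such spots (over 1.5 times the median) were left out on all arrays. After this, 24374 genes were measured on all 4 arrays, of which 11973 have a current gene symbol.

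Few genes were far from saline at 40 min. At the high dose 37 genes (0.152% of 24374) were past 1.5-fold with both arrays in the same direction, 21 higher and 16 lower than saline. At the low dose there were 33 (0.135%), 16 higher and 17 lower. The split at the high dose depended on the scaling, with 21 higher and 34 lower after median centring in place of loess and 141 higher and 229 lower in the authors' deposited value table. At both doses 12 genes (0.0492%) were past 1.5-fold in the same direction, 9 higher (0.0369%) and 3 lower (0.0123%), which is 32.4% of the high dose genes and 36.4% of the low dose genes. No gene was past 1.5-fold in opposite directions at the 2 doses. Of the high dose genes 25 have a symbol. At 2-fold, 11 genes were higher and 3 lower at the high dose, against 5 higher and 1 lower at the low dose. The limit itself parts close values: the weakest gene inside it was at 0.59 and the strongest outside at 0.58 at the high dose, and at 0.59 and 0.57 at the low dose.

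The discordance between the arrays of a swap gives the background for these counts. Taken as the difference between the turned arrays divided by 2, it was past 1.5-fold for 17 genes (0.0697%) at the high dose and 18 (0.0738%) at the low dose, and it reached 0.71 and 0.78. Its median size, 0.0935 and 0.0926, exceeded the median size of the swap means, 0.0555 and 0.0469. The turned arrays of a swap correlated at -0.294 (high dose) and -0.428 (low dose) across genes, which are not independent replicates. A dye effect enters the arrays of a swap with opposite signs and cancels in their mean. After correction for the dye effect the arrays of a swap correlated at 0.198 (high dose) and 0.061 (low dose). With this correction they agreed weakly across genes at the high dose and barely at the low dose. A dye effect particular to the ventral striatum would remain in these correlations. Most of the discordance repeated between the swaps. When the part common to both swaps was removed, 0 genes kept a discordance past 1.5-fold. The largest was then 0.30, with an SD of 0.0568 over genes. This remainder includes labelling and hybridisation. It cannot be read as the spread between rats, because the labels do not say which rat or pool gave each array.

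**Figure D1:**
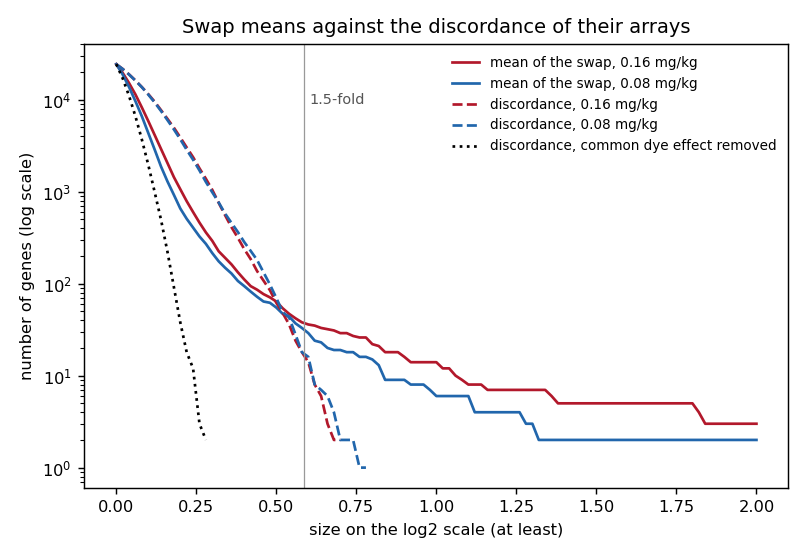
Number of genes (log scale) at or past each size on the log2 scale for the swap means and for the discordance of the arrays at 0.16 and 0.08 mg/kg, with the discordance also shown after removal of the dye effect common to both swaps. At the 1.5-fold line 37 and 33 genes remain for the swap means, 17 and 18 for the discordance and 0 after the dye effect is removed.

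The genes higher at both doses were led by early response genes. With a symbol these were Ccn1, Apold1, Btg2, Klf4, Dusp1 and Abcg2, and all 6 have a promoter in the RefSeq table of the GRCr8 build, which gives the bases before each gene's start. The 250 bases upstream of the start are given for 4 of them, 5′ to 3′ along the gene, because 3 of the 6 (Btg2, Dusp1 and Abcg2) hold the cAMP response element TGACGTCA there and Ccn1 had the largest ratio. Capitals mark that element.
Ccn1: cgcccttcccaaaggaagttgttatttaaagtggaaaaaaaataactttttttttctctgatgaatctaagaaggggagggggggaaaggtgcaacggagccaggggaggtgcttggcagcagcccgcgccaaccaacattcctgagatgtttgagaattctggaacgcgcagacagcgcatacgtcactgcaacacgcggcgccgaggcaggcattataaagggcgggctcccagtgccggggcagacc
Btg2: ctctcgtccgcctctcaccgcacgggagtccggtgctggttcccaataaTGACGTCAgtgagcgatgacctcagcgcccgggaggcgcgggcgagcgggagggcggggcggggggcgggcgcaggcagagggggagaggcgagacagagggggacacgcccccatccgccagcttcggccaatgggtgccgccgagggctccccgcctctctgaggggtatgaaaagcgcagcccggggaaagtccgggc
Dusp1: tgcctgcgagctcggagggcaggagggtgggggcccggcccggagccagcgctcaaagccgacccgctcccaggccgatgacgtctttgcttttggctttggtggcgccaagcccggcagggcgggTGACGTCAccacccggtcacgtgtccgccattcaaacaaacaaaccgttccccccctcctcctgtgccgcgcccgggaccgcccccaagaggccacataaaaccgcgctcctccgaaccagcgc
Abcg2: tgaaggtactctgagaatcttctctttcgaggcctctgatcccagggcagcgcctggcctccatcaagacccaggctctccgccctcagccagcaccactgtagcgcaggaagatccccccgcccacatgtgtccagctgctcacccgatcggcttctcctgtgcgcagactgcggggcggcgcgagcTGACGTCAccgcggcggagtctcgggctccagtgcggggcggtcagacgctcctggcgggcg
Ccn1 lies at chr2:237225690-237225939 on the minus strand, Btg2 at chr13:48087691-48087940 on the minus strand, Dusp1 at chr10:17184603-17184852 on the plus strand and Abcg2 at chr4:89075224-89075473 on the plus strand for these windows. The element begins 201 bases before the start in Btg2, 124 in Dusp1 and 62 in Abcg2. Among all 27457 promoters of the table, windows of the same length hold it in 1.7%. Of the 12 named genes with the highest high dose ratios, 9 have an entry, and 4 of these hold it, Ier2 being the fourth, at 66 bases. None of the 9 holds the AP-1 sequence TGANTCA, found in 6.36% of all windows, or the CArG box bound by serum response factor, found in 1.5%. With shares this low and only 9 windows, the absence of both says little about these genes. The 3 motifs read the same on both strands and none of the matches overlap. A match describes the letters of the window and no binding was measured.

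Ccn1 encodes a secreted matricellular protein of vessel walls and other tissues that binds integrins, and is a classical immediate early gene. Its high dose values were 3.72 and 4.15, and its low dose values 2.37 and 2.78. All 4 arrays were far above saline, with the high dose pair above the low dose pair, and the means of 3.94 and 2.57 correspond to 15.3-fold and 5.96-fold. Its probe lies at chr2:243811128-243811187 of rn3, the build of the array annotation. A second, dimmer Ccn1 probe gave 1.95 at the high dose and 1.03 at the low dose, in the same direction at a smaller size.

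Apold1, an endothelial early response gene, read 2.28 and 2.08 at the high dose against 1.28 and 0.92 at the low dose. Its means were 4.53-fold and 2.15-fold higher than saline. Btg2, an antiproliferative co-regulator of transcription, was the most even of the group, with 1.83 and 1.78 at the high dose and 0.84 and 0.83 at the low dose (3.5-fold and 1.79-fold). For both genes the arrays of the 2 doses did not overlap, a separation whose share over all genes was not counted.

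Klf4, a zinc finger transcription factor of endothelial and epithelial cells, gave 1.56 and 1.15 at the high dose and 0.90 and 0.43 at the low dose, 2.55-fold and 1.59-fold on average. A probe that the file names XM_213050 and describes as Klf4-like gave means of 1.36 and 0.59. Dusp1, which encodes a phosphatase that inactivates MAP kinases, gave 0.96 and 1.13 at the high dose and 0.54 and 0.75 at the low dose, 2.06-fold and 1.56-fold. Klf4 and Dusp1 were positive on every array, as the count at both doses requires. Their high and low dose arrays did not overlap, again without a share over all genes.

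Abcg2, a drug efflux transporter of the blood-brain barrier, differed from the others in its even response. It gave 0.98 and 0.69 at the high dose and 0.91 and 0.59 at the low dose, so that the doses overlapped at 1.78-fold and 1.68-fold. None of the remaining 17 endothelial and pericyte markers was past 1.5-fold at either dose (background 0.152% at the high dose and 0.135% at the low dose). The median of all 18 was 0.03 at both doses, against 0.00 for all genes.

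Atf3, a stress-induced transcription factor of the ATF/CREB family, showed the widest gap between doses among the early genes. Its high dose arrays read 2.24 and 1.82, a mean of 4.08-fold, whereas its low dose arrays read 0.54 and -0.06, on both sides of zero. Ier2 (1.16 at the high dose, 0.54 at the low dose), Klf2 (1.01 and 0.55) and Jun (0.92 and 0.36) were past 1.5-fold only at the high dose. Their low dose arrays were positive too.

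As groups, 6 of 23 measured immediate early transcription factors (of 26 listed) were past 1.5-fold higher at the high dose (background 0.0862%) and 2 at the low dose (background 0.0656%), and none was past it in the lower direction. The list did not move as a block, since its median was 0.10 at the high dose and -0.03 at the low dose. Members known as reporters of neuronal activity were not past the limit at either dose. Fos read 0.23 and 0.59 at the high dose and -0.21 and 0.10 at the low dose. Egr1, a growth response factor, read -0.21 and -0.29, then -0.35 and -0.42. Egr2 was the lowest of the list, at -0.38 and -0.63 and at -0.56 and -0.54, short of the limit at both doses. Nr4a3, an orphan nuclear receptor, had means of -0.30 and -0.51. Fosb and Junb had means within 0.10 of zero at both doses, and Npas4 and Egr4 are on the array but were not measured under the filter.

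The 19 symbols listed as matricellular and vessel early response genes include Cyr61, an older name of Ccn1. Of the list, 16 genes were measured. They had 5 members higher at the high dose (Ccn1, Apold1, Depp1, Adamts1 and Ccn2, background 0.0862%) and 2 at the low dose (Ccn1 and Apold1, background 0.0656%). None was lower. Their medians were 0.27 and 0.17. Depp1, a forkhead-responsive autophagy regulator, gave means of 0.83 and 0.40. The protease gene Adamts1 gave 0.75 and 0.34, with saline above background on 1 of the 2 high dose arrays. Ccn2, the nearest relative of Ccn1 in this list, gave 0.59 and 0.31. Edn1, which encodes the vasoconstrictor endothelin, reached 0.48 and 0.27 without passing the limit.

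Among 23 measured activity-induced effectors, of 25 listed, Dusp1 and the kinase gene Sgk1 (0.72 and 0.48) were past the limit at the high dose and Dusp1 at the low dose, with list medians of -0.02 and -0.05. The background for single genes was 0.0862% at the high dose and 0.0656% at the low dose. The rest of the list lay on both sides of saline, with 10 of 23 members above zero at the high dose and 8 of 23 at the low dose. Sik1, a salt-inducible kinase gene, had means of 0.32 and -0.05, Gadd45g of 0.22 and 0.20 and Plk2 of -0.02 and -0.01. Arc read -0.14 and -0.07 at the high dose and -0.28 and -0.22 at the low dose. Vgf, a secreted neuropeptide precursor, read -0.38 and -0.32, then -0.32 and -0.35, and Nptx2 had means of -0.32 and -0.26. Of 19 measured glucocorticoid and stress responsive genes, of 22 listed, Dusp1, Cebpd (0.74 and 0.33) and Sgk1 were past the limit at the high dose (background 0.0862%) and Dusp1 at the low dose (background 0.0656%). In this list the sign was mostly shared, with 17 of 19 members above zero at the high dose and 18 of 19 at the low dose, medians of 0.22 and 0.15, against 12285 and 12081 of 24374 for all genes.

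**Figure D2:**
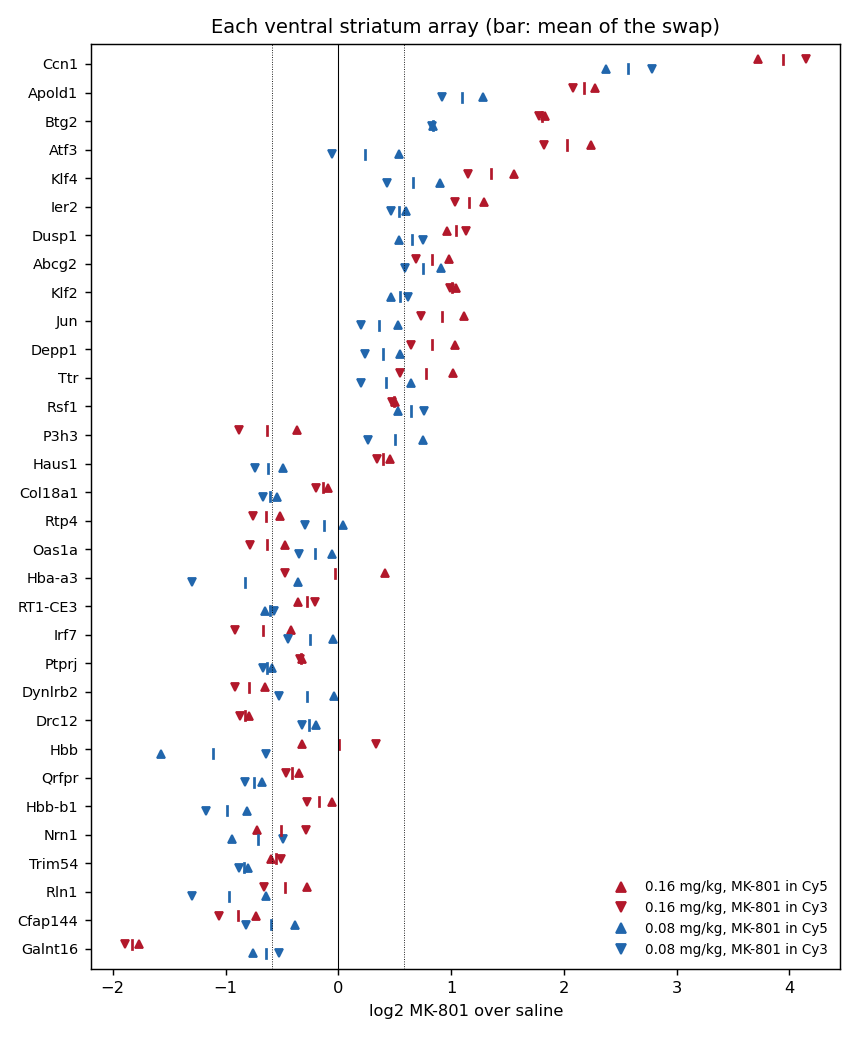
Log2 MK-801 over saline on each of the 4 ventral striatum arrays for the genes with the highest and lowest swap means, with triangles giving the dye orientation, bars the mean of each swap and dotted lines 1.5-fold. The 4 Ccn1 arrays lie between 2.37 and 4.15, and the high dose Galnt16 arrays at -1.77 and -1.89.

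The genes that characterise the region stayed near saline. None of the 28 measured striatal projection neuron genes was past 1.5-fold at either dose (background 0.152% at the high dose and 0.135% at the low dose). With so low a share over all genes, a list this short with none past the limit says little, here and for the lists below. The swap means of the 28 genes ran from -0.18 to 0.15 at the high dose and from -0.13 to 0.10 at the low dose. The 29 measured dopamine, cAMP and opioid signalling genes ran from -0.44 to 0.10 and from -0.29 to 0.11. Their lowest member was Cartpt, the accumbens peptide CART, at -0.37 and -0.52 at the high dose and -0.21 and -0.36 at the low dose. The receptor that MK-801 blocks showed no shift at this resolution, as the 6 measured NMDA receptor subunit and associated genes, of 8 listed, ran from -0.05 to 0.08 at the high dose and from -0.04 to 0.05 at the low dose. Grin1, the obligatory subunit, had means of -0.04 and -0.04, and its single arrays read 0.11, -0.18, 0.13 and -0.21, alternating with the dye. The 16 AMPA, kainate and metabotropic receptor genes and the 16 postsynaptic scaffold genes stayed within 0.20 of zero at both doses, with none past the limit. Clock genes (17 measured), heat shock and chaperone genes (14) and oxidative phosphorylation genes (24) had none past the limit either, and medians between -0.04 and 0.05. Among 16 striatal interneuron genes the peptide gene Vip was lowest, at means of -0.32 and -0.57, and Pvalb, of fast-spiking interneurons, highest at 0.35 and 0.14.

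**Figure D3:**
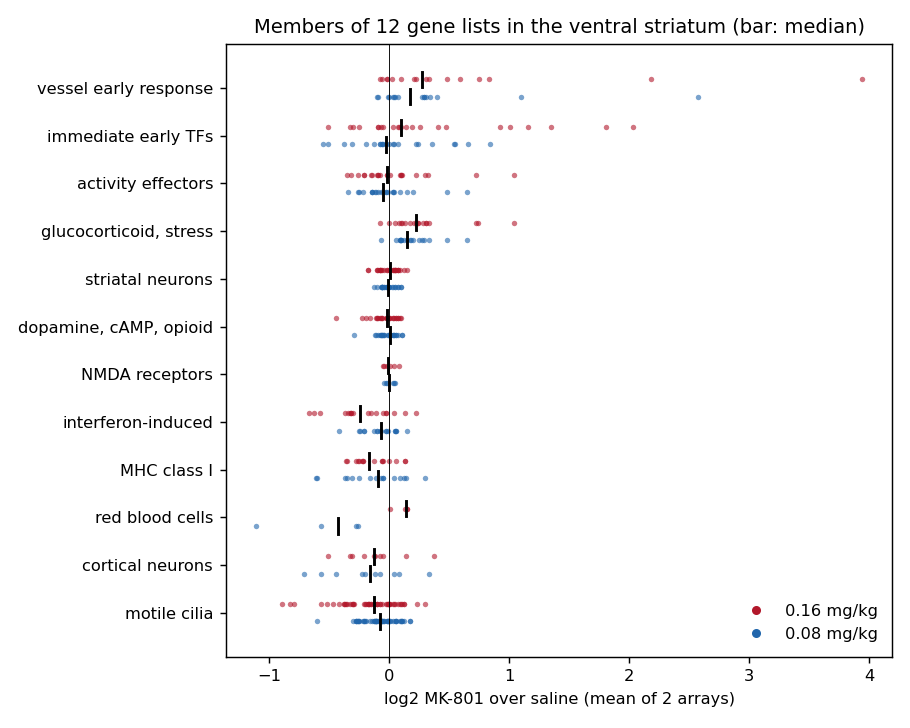
Swap means of the measured members of 12 gene lists at 0.16 and 0.08 mg/kg in the ventral striatum, with bars at the list medians. The 28 striatal neuron genes lie between -0.18 and 0.15, while the vessel early response list reaches 3.94.

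Lower genes were headed by Galnt16, a Golgi enzyme that starts O-linked glycosylation. Its arrays read -1.77 and -1.89 at the high dose and -0.76 and -0.53 at the low dose, means of 0.281 and 0.640 times saline. The ventral striatum shared this with the rest of the brain, since Galnt16 lay between -2.24 and -1.78 in the other 5 regions at the high dose and between -0.91 and -0.51 at the low dose. Several other genes had similar ratios in the other regions. P3h3, a collagen prolyl hydroxylase, read -0.37 and -0.88 at the high dose but 0.75 and 0.26 at the low dose, and the other regions ran from -0.92 to -0.63 and, in the 4 measured at the low dose, from 0.34 to 0.64. Haus1, an augmin subunit of the mitotic spindle, did the reverse at 0.46 and 0.34, then -0.49 and -0.74, with other regions from 0.32 to 0.56 and from -0.66 to -0.44. A second probe of each gene did not follow: it gave -0.08 and 0.34 for Haus1, and 0.05 and 0.04 for P3h3, where it was dim. The tyrosine phosphatase gene Ptprj had means of -0.33 and -0.63, with other regions from -0.50 to -0.35 and from -0.79 to -0.63.

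A transcript the file names LOC685106 and describes as similar to a ribosomal protein showed the largest dose difference among the genes counted. It read 2.11 and 2.04 at the low dose but 0.21 and -0.37 at the high dose, and the other regions showed 1.68 to 2.35 and -0.10 to 0.09. The unannotated TC526384 behaved alike, at means of 1.27 and -0.04. In the ventral striatum 32 genes (0.131%) differed past 1.5-fold between the doses with both array pairs of one orientation in the same direction, 18 higher (0.0738%) and 14 lower (0.0574%) at the high dose. This difference may hold differences between saline rats as well as between MK-801 rats, since the saline RNA of each swap is not identified. Atf3 (1.79), Ccn1 (1.36), Apold1 (1.08) and Btg2 (0.97) were among the higher ones, and Galnt16 (-1.19) and P3h3 (-1.13) among the lower.

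**Figure D4:**
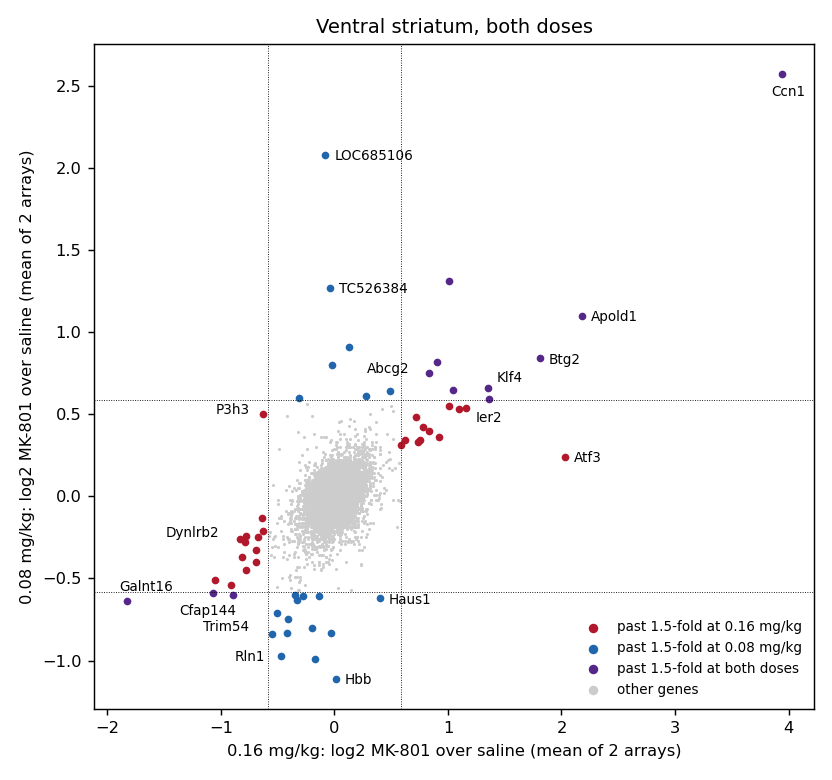
Swap means of 24374 genes at 0.16 mg/kg (horizontal) and 0.08 mg/kg (vertical), log2 MK-801 over saline, with dotted lines at 1.5-fold and colours for genes past it. Ccn1 sits at 3.94 and 2.57, Atf3 at 2.03 and 0.24, and LOC685106 at -0.08 and 2.08; both axes are ratios to the study's 1 saline group.

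Most interferon-induced and antigen presentation genes read below saline at both doses. Of 18 measured interferon-induced genes, of 20 listed, 2 were past the limit lower at the high dose (background 0.0656%) and 0 at the low dose. Irf7, the regulator of type I interferon genes, read -0.42 and -0.92 at the high dose and -0.05 and -0.45 at the low dose. The antiviral synthetase gene Oas1a had means of -0.63 and -0.21, and Isg15, a ubiquitin-like modifier, -0.58 and -0.24. The list median was -0.24 at the high dose and -0.07 at the low dose, and in the other regions the high dose median ran between -0.27 and -0.16. Rtp4, a receptor chaperone also known as interferon-induced but outside the list, had means of -0.64 and -0.13. Of 16 major histocompatibility class I and antigen processing genes, 2 were lower at the low dose (background 0.0697%) and 0 at the high dose, and the list medians were -0.17 at the high dose and -0.09 at the low dose. RT1-CE3 read -0.65 and -0.57 at the low dose and -0.36 and -0.21 at the high dose, and RT1-CE16 had means of -0.60 and -0.35. In the other 5 regions RT1-CE3 ran from -0.87 to -0.60 and RT1-CE16 from -0.77 to -0.54 at the low dose. At the high dose they ran from -0.60 to -0.25 and from -0.59 to -0.26. Class I genes are near-identical copies, so a probe may read several of them.

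Globin genes were lower at the low dose. Hbb, a beta globin gene, read -1.57 and -0.64 at the low dose and -0.32 and 0.33 at the high dose. Hbb-b1 had means of -0.99 and -0.17 and Hba-a3, an alpha globin gene, -0.83 and -0.03, though globin probes may share targets. All 4 measured red blood cell markers, of 7 listed, were below zero at the low dose, with a median of -0.43, and their summed level was 0.551 and 0.650 times that of saline on the low dose arrays against 1.12 and 1.09 on the high dose arrays. The same median was between -0.34 and -0.03 in the other regions. In a bulk dissection, fewer cells of a type and less RNA per cell cannot be told apart.

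Markers of cortical and hippocampal projection neurons lay on both sides of saline, with 2 of 10 above zero at the high dose and 3 of 10 at the low dose. Nrn1, a neurite outgrowth protein of excitatory neurons, read -0.72 and -0.29 at the high dose and -0.94 and -0.49 at the low dose. Neurod2 had means of -0.31 and -0.57, and the upper layer marker Cux2 of -0.12 and -0.44. In the other direction, Rasgrf2 had means of 0.37 and 0.33 and Wfs1 of 0.14 and 0.08. The 10 measured markers of 13 listed had medians of -0.13 and -0.16, 1 past the limit lower at the low dose (background 0.0697%), and summed levels of 0.821 to 0.953 times saline over the 4 arrays. The part of these marker levels in the other results was not tested. Oligodendrocyte markers lay slightly above saline, 13 of 14 at the high dose and 14 of 14 at the low dose, with medians of 0.10 and 0.14. For all genes 12285 and 12081 of 24374 were above zero. In the other regions the medians of these markers ran from -0.10 to 0.14 at the high dose and from -0.02 to 0.14 at the low dose. Aspa was the highest in the ventral striatum, at 0.52 and 0.35. The summed level of the markers there followed the dye. It was 1.31 and 1.27 times saline where MK-801 was in Cy5 and 0.944 and 0.958 where it was in Cy3. Among 6 measured choroid plexus markers of 11 listed, Ttr, the transthyretin gene, was at 0.78 and 0.42 and the other 5 had no member past the limit. In the other regions Ttr ran from -2.62 to 1.34 at the high dose. No marker of astrocytes, microglia, meningeal fibroblasts, or septal, monoamine or hypothalamic neurons was past the limit at either dose (background 0.152% and 0.135%). Oxt, a hypothalamic peptide gene, was the widest of these, at 0.60 and 0.50 at the high dose and -0.18 and -0.21 at the low dose.

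Genes of motile cilia were also in the lower set at the high dose. Motile cilia are beating hairs built on dynein motors, carried in the brain by the ependymal cells that line the ventricles. Cfap144, a cilia and flagella associated protein gene, read -0.73 and -1.06 at the high dose and -0.38 and -0.82 at the low dose, 0.539 and 0.660 times saline. Dynlrb2, a dynein light chain gene, read -0.65 and -0.92, then -0.04 and -0.53. Drc12, of the nexin-dynein regulatory complex, read -0.79 and -0.87, then -0.20 and -0.32, and a second probe was lower too, at -0.60 and -0.36. All arrays of these 3 genes were below zero, which the count past 1.5-fold requires except for the low dose arrays of Dynlrb2 and Drc12. Foxj1, the transcription factor that drives motile ciliogenesis, read -0.45 and -0.59 at the high dose and -0.14 and -0.46 at the low dose, inside the limit.

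A list of 109 motile cilia and ependymal genes was drawn up after these values had been seen, so its counts only describe. Of these, 69 are on the array and 54 were measured. At the high dose 3 were past 1.5-fold lower (background 0.0656%) and 13 of 54 were above zero, against 12285 of 24374 for all genes, with a median of -0.13. At the low dose 1 was past it (background 0.0697%) and 15 of 54 were above zero, against 12081 of 24374, with a median of -0.08. In the midbrain 37 of 54 were below zero at the low dose, against 39 of 54 in the ventral striatum. The medians of the other regions lay between -0.01 and 0.06 at the high dose and between -0.05 and 0.02 at the low dose. The summed level of the 54 genes was 0.928 and 0.918 times saline on the high dose arrays and 1.02 and 0.957 on the low dose arrays. How far the share of ventricle lining in the dissected pieces entered these ratios was not tested.

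Whether the ventral striatum differed from the other 5 regions was tested with limma on 1 value per region, with Benjamini-Hochberg adjustment over all genes and an adjusted p under 0.05. The single ventral striatum value is assumed to vary like the others, and the regions come from the same rats. The array titles give each region a number of its own, whose meaning is not stated. Region and any batch behind that number cannot be told apart. For the mean of both doses 2 of 23676 genes (0.00845%) were lower in the ventral striatum and 0 higher. At the high dose 7 of 24052 (0.0291%) were lower and 0 higher, and at the low dose 4 of 24099 (0.0166%) were lower and 0 higher. Under an unadjusted limma p of 0.05 there were 886, 1208 and 532 genes. These counts are near or below the share of 0.05 that such a limit passes when no gene differs. No gene passed for the difference between doses, with a smallest limma adjusted p of 0.434. There 686 genes were under an unadjusted limma p of 0.05, again below that share. With single arrays in place of swaps and the array number as a block, the limma calls were 41 for the mean, 20 at the high dose and 12 at the low dose, where the arrays of a swap are not independent samples.

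At the high dose the calls included the cilia genes. Cfap144 differed from the mean of the other regions by -1.09 on the log2 scale (-0.89 against 0.20 ± 0.17, SD, n = 5; SE of the difference 0.13; limma adjusted p = 0.0291). It was the lowest of the 6 regions, the others running from 0.07 to 0.50. Dynlrb2 differed by -0.89 (-0.79 against 0.10 ± 0.13, SD, n = 5; SE 0.11; limma adjusted p = 0.0304), the others running from -0.04 to 0.32. Drc12, at -0.83 against -0.02 ± 0.14 (SD, n = 5), had a limma adjusted p of 0.0621. The other 5 calls have no current symbol. RGD1564871_predicted, described in the file as similar to a thioredoxin domain protein, read -1.02 and -1.12, and RGD1306603_predicted read -1.09 and -1.02, against means of 0.02 and -0.01 elsewhere (limma adjusted p = 0.0311 and 0.0185). At the low dose the midbrain was as low as the ventral striatum for several of these, with -0.53 for Dynlrb2, -0.56 for Drc12 and -0.71 for RGD1564871_predicted, and none was called. The high dose calls numbered 0 without the array with MK-801 in Cy5, 3 without the one with MK-801 in Cy3, 3 without the cerebral cortex, 4 without the hippocampus and 13 without the midbrain. With the spots of raised local background kept they numbered 18.

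**Figure D5:**
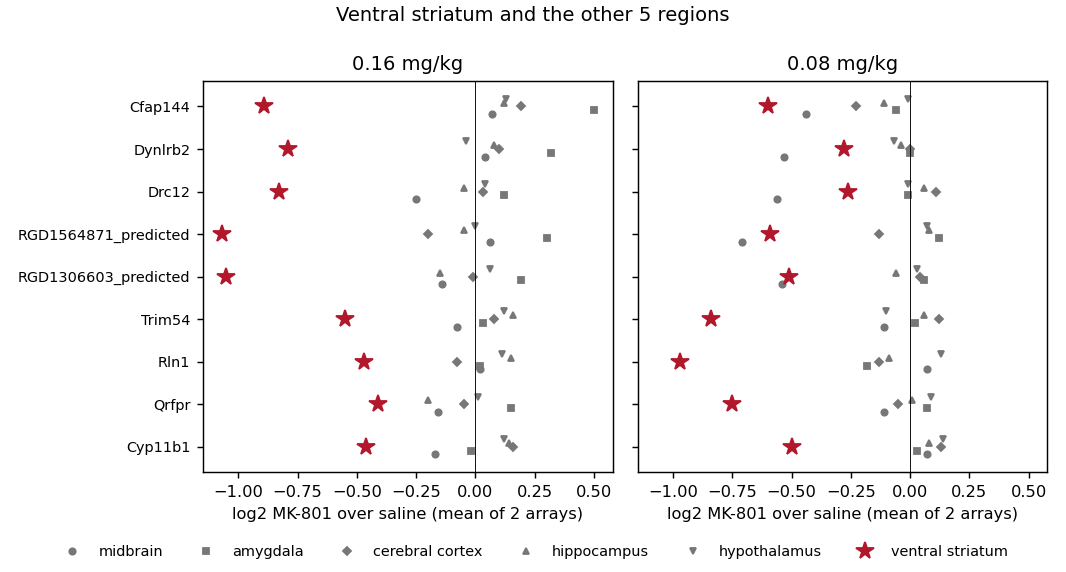
Swap means (log2 MK-801 over saline) of 9 genes in the ventral striatum (stars) and the other 5 regions (grey symbols) at 0.16 and 0.08 mg/kg. Cfap144 is at -0.89 in the ventral striatum and between 0.07 and 0.50 elsewhere at the high dose, and Rln1 at -0.97 against -0.18 to 0.13 at the low dose.

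At the low dose the 4 calls were dimly expressed genes outside the early response. Trim54, a ubiquitin ligase of muscle microtubules, read -0.80 and -0.88 at the low dose and -0.60 and -0.51 at the high dose. Its difference from the other regions was -0.84 (-0.84 against 0.00 ± 0.10, SD, n = 5; limma adjusted p = 0.0299). Rln1, the relaxin peptide gene, read -0.64 and -1.30 at the low dose and -0.28 and -0.66 at the high dose, a difference of -0.93 from the other regions (-0.97 against -0.04 ± 0.13, SD, n = 5; limma adjusted p = 0.0299). Qrfpr, a neuropeptide receptor gene, had means of -0.75 and -0.41, and Cyp11b1, a steroid hydroxylase gene, of -0.50 and -0.46, the latter short of 1.5-fold. For the mean of both doses Trim54 (limma adjusted p = 0.0467) and Rln1 (limma adjusted p = 0.0478) passed, near the threshold. The mean intensities of these 4 genes lay between percentiles 24.0 and 34.2 of all measured genes, though both colours were above background on all 4 arrays. The low dose calls numbered 0 without either low dose array, 0 without the hippocampus and 2 without the hypothalamus, and the calls for the mean numbered 0 without the amygdala, the hippocampus or the hypothalamus, 0 when spots of raised background were kept and 16 without the midbrain.

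No early response gene was called in these tests. Ccn1 at the high dose was 3.94 in the ventral striatum against 2.43 ± 1.42 (SD, n = 5) elsewhere, from 0.65 to 4.16, and at the low dose 2.57 against a range of -0.04 to 3.66. Apold1 was 2.18 against a range of 0.84 to 3.08, Btg2 1.81 against 0.47 to 2.07, and Atf3 2.03 against -0.10 to 2.87 at the high dose. The ventral striatum lay inside the range of the other regions for each of them. Abcg2 lay above the range, at 0.83 against 0.54 to 0.74 at the high dose and 0.75 against 0.48 to 0.56 at the low dose, with limma adjusted p of 0.983 and 1. These wide ranges limit what the tests could detect, and a p that misses the threshold does not show equal responses.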

How the data were processed

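The arrays were scanned and quantified by the authors with Agilent Feature Extraction 9.5.3.1, per the submitters' processing notes and the file headers, and the deposited files give mean and background intensity in each colour and a log10 ratio of Cy5 over Cy3 per spot. A deposited value table of log10 ratios equals the log10 ratio of the processed signals on the ventral striatum arrays. The main values were made here from the intensities with limma 3.58.1 in R 4.3.3: normexp background correction (offset 50), loess within each array and turning to MK-801 over saline by the labelled dyes. Control spots, feature outlier flags and spots with local background over 1.5 times the array median were left out; the last step was chosen after the data were seen. Genes needed both colours well above background on at least 2 of the 4 arrays and a value on all 4, and the brightest probe stood for a gene. Of 41012 probes, 20067 carry a current symbol through RefSeq, and the other names are those of the array design on rn3. No test was possible within a dose; a gene was counted when the swap mean was past 1.5-fold with both arrays in 1 direction. Regions were compared by lmFit and eBayes where at least 4 other regions had a value. Same-numbered arrays of the ventral striatum and the mean of the other regions deviated together (r from 0.732 to 0.757 over 21951 genes), but the number stands for dose and dye orientation, so this does not show pairing of animals. Named genes were, per dose, the 12 highest and 12 lowest with a symbol past 1.5-fold, those past it at both doses, up to 8 called each way in each region test, and of each gene list the 4 largest and any past the limit; others named beside them, such as Fos, Egr1, Arc and Foxj1, were chosen after their values were seen. The members, lists and rules were chosen with earlier results of these data known. The script was tested on simulated data. The number of arrays limits the precision, and a sample label names no animal, so p-values measure the spread between these regions.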

Additional observations from a re-analysis of the deposited data

Results flagged for a closer look

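The results below differ between the ventral striatum and the other 5 regions by the limma test of the difference, given as ventral striatum minus the mean of the others on the log2 scale. At the high dose these were RGD1564871_predicted (-1.09), Cfap144 (-1.09), RGD1306603_predicted (-1.04), Dynlrb2 (-0.89) and 3 transcripts without a symbol, TC541896 (-0.97), TC560986 (-0.81) and AA801133 (-0.73). Cfap144 and Dynlrb2 are motile cilia genes. At the low dose these were Rln1 (-0.93), Trim54 (-0.84), Qrfpr (-0.75) and Cyp11b1 (-0.59), all 4 dim. For the mean of both doses they were Trim54 (-0.73) and Rln1 (-0.72). Each read below saline on both ventral striatum arrays of the dose concerned. Against the cerebral cortex alone, a value with no test, the differences ran from -1.08 to -0.61.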

How the results depend on the processing

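Of 1089 values of single genes recomputed under the alternatives, 961 stayed within the spread of their arrays or on their side of the test's threshold, 44 moved further, 84 lost a test call and 0 of the called ones changed sign. Values that were not called did change sign, such as Atf3 at the low dose (-0.06 to 0.54), Hbb (-0.32 to 0.33) and Hba-a3 (-0.47 to 0.41) at the high dose and Rtp4 at the low dose (-0.30 to 0.04). The counts past 1.5-fold (37 at the high dose, 33 at the low dose, 12 at both) were 287, 125 and 43 with the scanner's own log ratio and 370, 125 and 43 with the deposited value table. They were 14, 6 and 3 at a 2-fold limit and 133, 108 and 37 at 1.3-fold; with both arrays past 1.5-fold the low dose count was 17 and the shared count 5. A single array gave 91 to 125 genes at the high dose and 84 to 115 at the low dose. A limma fit of the 4 arrays with a dye term called 1385, 672 and 280. Its replicates are the arrays of a swap, which cannot be taken as separate rats because the labels name no animal. In the region tests the scanner's log ratio gave 0 calls for the mean of doses, 0 at the high dose and 0 at the low dose, and the deposited values gave 0, 1 and 0. For the mean of doses, keeping spots of raised background, a filter on 12 of 24 arrays, and a trended robust prior each gave 0, all outlier flags gave 4 and the 12 swaps with dose as a covariate 14. Leaving out a region gave 16 (midbrain), 0 (amygdala), 0 (hippocampus) and 0 (hypothalamus). At the high dose, keeping raised background gave 18, and leaving out the midbrain, cortex or hippocampus 13, 3 and 4. At the low dose the trended robust prior gave 1, and leaving out the hippocampus or hypothalamus 0 and 2. The replicate block gave 41, 20 and 12 calls. Without single arrays the calls ran from 0 to 2 for the mean, 0 to 3 at the high dose and 0 to 0 at the low dose. The cause of these changes was not tested. Keeping raised background and using all outlier flags were alternatives chosen after seeing the data. Every called gene kept its direction in all alternatives run. The cortex-only comparison has no residual degrees of freedom and is given as values.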
